A study of Mus musculus with 12 samples.

Results

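The neuregulin and ErbB genes comprised the 4 receptors Egfr, Erbb2, Erbb3 and Erbb4, the neuregulins Nrg1, Nrg2 and Nrg3, and the epidermal growth factor (EGF)-like ligands Btc, Areg and Hbegf. They were taken by gene symbol from a table of 49315 genes, and 9 of the 10 listed symbols were found. No entry carried the symbol Areg. The Ensembl identifier that the mouse annotation gives to Areg carried the symbol Mcub, which 2 entries of the table share, and its values are given by identifier only.

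Gene expression was measured by bulk RNA sequencing of dorsal root ganglia (DRG), about 8 per mouse, from 12 mice aged 10 months, with 1 library per mouse. Nf2 mice (n = 6) were Postn-Cre(+);Nf2 flox/flox. Double knockout (DKO) mice (n = 6) were likewise Postn-Cre(+) and Nf2 flox/flox and were Fak1 flox/flox in addition, where Fak, the focal adhesion kinase, is the gene annotated as Ptk2. Both genotypes therefore carried the Periostin-driven Cre recombinase and lacked Nf2 in the recombined cells, which per the study's methods are Schwann cells and their precursors, and no mouse with intact Nf2 was analysed here. Each genotype held 3 mice labelled male and 3 labelled female. The comparison of DKO with Nf2 DRG asks what loss of Fak added to loss of Nf2 in these ganglia.

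ErbB receptors are tyrosine kinases that pair with each other after binding an EGF-like ligand. ErbB2 binds no ligand of its own and ErbB3 has little kinase activity, so the pair works as a unit that receives neuregulin. In peripheral nerve, neuregulin 1 on axons acts through ErbB2 and ErbB3 on Schwann cells to control their survival, their number and the thickness of myelin, and merlin, the product of Nf2, restrains growth factor receptors at the cell surface.

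Libraries held between 21129191 and 41250329 counts. Ptk2 stood at 70.0 ± 3.60 CPM (read counts scaled to the library total; SD, n = 6) in Nf2 DRG, with a range of 65.8 to 75.5, and at 64.0 ± 10.4 CPM in DKO DRG, with a range of 46.5 to 76.0 (log2 fold change -0.15, edgeR adjusted p = 0.529). Nf2 itself stood at 128 ± 12.4 and 118 ± 11.2 CPM (log2 fold change -0.14, edgeR adjusted p = 0.435). These counts cover whole genes in mixed tissue, exons outside the deleted parts and cells without Cre included, so they do not check the genotype labels. Mouse 702, labelled male, had 496 CPM of Xist and 0.525 CPM of Ddx3y, which went against its label. Mitochondrial genes took 4.45% of the counts of Nf2 mouse 649 and 5.60% of those of DKO mouse 887, against 1.99% to 3.15% in the other 10 mice. Markers of sensory neurons summed to 4774 to 6808 CPM in Nf2 and 5204 to 6100 CPM in DKO DRG, and markers of myelinating Schwann cells to 7025 to 9820 and 6686 to 9979 CPM, as the labelled tissue should hold. No marker of any list was at 0 in all mice.

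None of the 9 neuregulin and ErbB genes that could be tested passed the test for a difference between DKO and Nf2 DRG. By edgeR's quasi-likelihood test with Benjamini-Hochberg adjustment over all 18295 tested genes, 172 genes, or 0.940%, passed an adjusted p of 0.05, with 68 higher and 104 lower in DKO DRG. Of the members 0 of 9 passed, 1 of 9 (Hbegf) had an unadjusted p under 0.05, a level that 14.9% of all tested genes reached, and DESeq2 called 0 of 9 where it called 4.06% of all genes it tested. None of the 9 separated the genotypes without overlap, which 1.95% of the tested genes did. Hbegf stood lower in DKO DRG by the widest margin relative to its error, while Nrg1 and Erbb3 had nearly equal means in both genotypes.

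**Figure D1:**
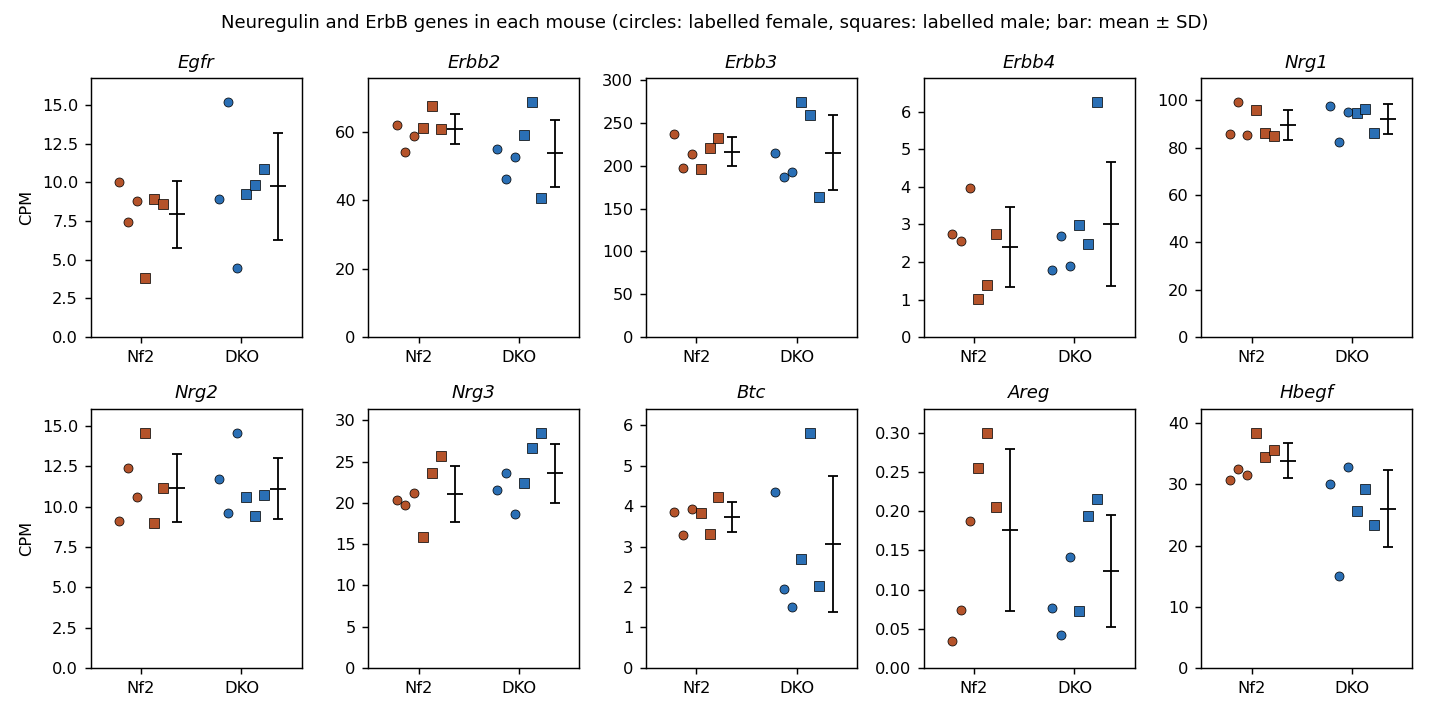
CPM of each gene (y axis, from 0, separate scale per gene) in the 6 Nf2 and 6 DKO mice, with circles for labelled females, squares for labelled males and bars for the mean ± SD; Areg is the entry matched by identifier. Nf2 and DKO mice overlap for every gene, and 5 of 6 DKO mice lie below the lowest Nf2 mouse for Hbegf.

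The receptors differed widely in abundance. Expressed per kilobase of merged exons (CPM per kb), which allows levels of different genes to be compared, Erbb3 had a mean of 35.9 over the 12 mice, with a range of 27.1 to 45.6. Erbb2 followed at 11.0 CPM per kb (7.80 to 13.2), so that the ErbB3 transcript exceeded that of its partner in every mouse. Egfr stood at 0.781 CPM per kb (0.338 to 1.34) and Erbb4 at 0.219 CPM per kb (0.0827 to 0.507). Thus the receptor pair of Schwann cells was far above the EGF receptor itself and above Erbb4, a receptor for neuregulins best known from heart and brain. The ratio of Erbb3 to Erbb2 per length was 3.09 ± 0.228 (SD, n = 6) in Nf2 DRG and 3.47 ± 0.294 in DKO DRG, with a range of 2.79 to 4.01 over all mice, and its difference was not tested.

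Among the ligands Nrg1, the axonal signal for Schwann cells, was the most abundant at 8.78 CPM per kb (7.97 to 9.59). Hbegf, the heparin-binding ligand of EGFR and ErbB4, stood at 6.19 CPM per kb (3.10 to 7.95). Nrg2 and Nrg3 had similar levels of 3.54 (2.87 to 4.64) and 3.28 CPM per kb (2.34 to 4.18). Betacellulin (Btc), which binds EGFR and ErbB4, was low at 0.753 CPM per kb (0.335 to 1.29). The entry with the Areg identifier was lowest of all at 0.123 CPM per kb (0.0278 to 0.247), from 1 to 8 counts per mouse. In this order the mice of neighbouring genes did not overlap between Erbb3 and Erbb2, between Nrg1 and Hbegf, and between Nrg3 and Egfr. Erbb2 and Nrg1, Hbegf and Nrg2, Nrg2 and Nrg3, Egfr and Btc, Btc and Erbb4, and Erbb4 and the Areg entry overlapped. The order depended on the length used for Nrg1 and Nrg3, whose merged exons are much longer than any single transcript. Per kilobase of the longest transcript Nrg1 stood at 16.8, above Erbb2 at 11.4, and Nrg3 at 5.57, above Nrg2 at 3.64. The level of Hbegf also depended on the length, at 10.4 per kilobase of the longest transcript, though it stayed below Erbb2 and Nrg1.

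**Figure D2:**
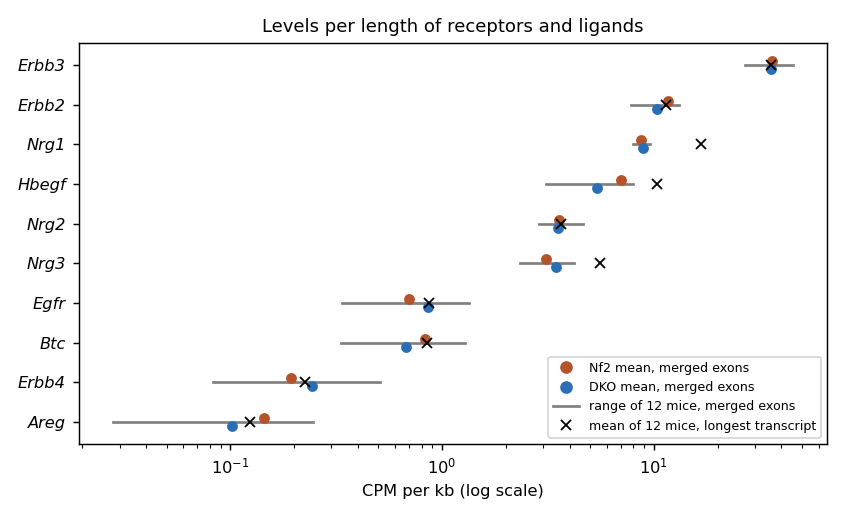
Level of each gene in CPM per kb (x axis, log scale), with dots for the Nf2 and DKO means and a line for the range of all 12 mice per kilobase of merged exons, and a cross for the mean per kilobase of the longest transcript. Erbb3 stands alone at the top at 35.9, and Nrg1 moves from 8.78 to 16.8 with the longest transcript.

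Erbb3 (ENSMUSG00000018166, GRCm38 chr10:128567523-128589652, minus strand) encodes the neuregulin-binding partner of the Schwann cell receptor. In Nf2 DRG its lowest, median and highest values were 196, 217 and 237 CPM, and in DKO DRG 163, 204 and 274 CPM. The DKO mice thus spread around the Nf2 mice on both sides, with 3 below the lowest and 2 above the highest of them. The means were 216 ± 17.1 and 215 ± 43.6 CPM (SD, n = 6 each), and the coefficient of variation was 7.93% in Nf2 and 20.3% in DKO DRG. The log2 fold change was -0.03 ± 0.11 (SE) with a 95% interval of -0.27 to 0.22 and an edgeR adjusted p of 0.939.

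Erbb2 (ENSMUSG00000062312, chr11:98412470-98437716, plus strand) encodes the signalling kinase of that pair. It ranged from 54.2 through a median of 60.9 to 67.5 CPM in Nf2 DRG and from 40.6 through 53.7 to 68.7 CPM in DKO DRG. All but 1 of the DKO mice lay below the Nf2 mean, and the genotypes overlapped. Its means were 60.8 ± 4.33 and 53.7 ± 9.85 CPM (SD, n = 6 each), which gave a log2 difference of -0.20 ± 0.11 (SE; 95% interval -0.43 to 0.03; edgeR adjusted p = 0.421). Without mouse 917 the difference was -0.13, and without mouse 915 it was -0.28. An exon of Mien1 on the opposite strand covers 0.173% of the exonic length of Erbb2, and the strand setting of the counting was not given in the sources used here.

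Erbb2 and Erbb3 levels were correlated across the mice. On the log2(CPM + 4) scale of the study, Pearson's r over the 12 mice was 0.790 (permutation p = 0.00228, adjusted over 6 receptor pairs 0.0137). Spearman's rho was 0.769 (permutation p = 0.00503, adjusted 0.0302). These p-values are against no relation at all between the genes. All genes of a mouse share its library, and pairs outside the receptors were not compared. The p-values therefore do not mark a relation particular to this pair. Without mice 917 and 886, the farthest from the median of Erbb2, r was 0.559. Within genotypes r was 0.512 in Nf2 and 0.913 in DKO DRG, with the higher value in the genotype of wider spread. The DKO mice with the lowest Erbb3 were mouse 917 at 163 CPM and mouse 886 at 187 CPM, and the same mice had the lowest Erbb2, at 40.6 and 46.3 CPM. Their sums of the 6 markers of myelinating Schwann cells were 8221 and 6686 CPM, the latter the lowest of all mice. Mouse 914, with the highest Erbb3 at 274 CPM, had the highest sum, at 9979 CPM. Mouse 915, with an Erbb3 of 259 CPM, had a sum of 7997 CPM. For the 9 markers of nonmyelinating and repair Schwann cells, mice 917 and 886 had sums of 3285 and 3289 CPM. Only mouse 887 had a lower sum, in a range of 3041 to 4510 CPM over all mice. The sums of the 5 satellite glia markers in mice 917 and 886 were the lowest, at 3204 and 3124 CPM, against 3514 to 6032 CPM in the other 10 mice. Most of these sums came from 1 marker, Apoe, with means of 3920 CPM in Nf2 and 3026 CPM in DKO DRG. Yet mouse 649 had the highest of these sums with an Erbb3 of 196 CPM. The part of these cells in the relation was not tested, and in bulk tissue fewer cells of a type and less RNA per cell cannot be told apart. For the remaining 5 pairs, the adjusted permutation p of r was 0.146 for Erbb2 with Erbb4 and 0.180 or more for the others.

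Egfr (ENSMUSG00000020122, chr11:16752203-16918158, plus strand) encodes the receptor for EGF, amphiregulin and related ligands. Its lowest, median and highest values were 3.83, 8.68 and 10.0 CPM in Nf2 DRG and 4.45, 9.52 and 15.2 CPM in DKO DRG. In both genotypes 1 mouse stood well below the rest, mouse 649 in Nf2 and mouse 887 in DKO DRG, the libraries with the highest mitochondrial share. The means were 7.93 ± 2.17 and 9.76 ± 3.46 CPM (SD, n = 6 each), which gave a log2 difference of 0.28 ± 0.25 (SE; 95% interval -0.27 to 0.82; edgeR adjusted p = 0.669), and 0.27 when both mice were left out. Leaving out mouse 649 alone gave 0.13, leaving out mouse 886 gave 0.10 and leaving out mouse 887 alone gave 0.41, so the size rested on single mice. Mouse 886, with the highest Egfr, also had the highest sum of the 4 markers of meninges, at 1385 CPM, while mice 649 and 887 had 33.1 and 101 CPM. All 4 of these markers had a fold change above 0, with 0 past the threshold, and their sum ranged from 33.1 to 230 CPM in Nf2 and from 101 to 1385 CPM in DKO DRG. Mouse 886 also had the highest sums of endothelial and perineurial markers, at 96.3 and 450 CPM. Mouse 649 had the lowest of both, at 54.5 and 293 CPM, and mouse 887 had 66.1 and 329 CPM. The part of these cells in the Egfr values was not tested.

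Erbb4 (ENSMUSG00000062209, chr1:68032186-69108059, minus strand) was the least abundant receptor, with 24 to 145 counts per mouse. It ranged from 1.02 through a median of 2.65 to 3.96 CPM in Nf2 and from 1.78 through 2.58 to 6.26 CPM in DKO DRG, with means of 2.40 ± 1.06 and 3.01 ± 1.66 CPM (SD, n = 6 each). The log2 fold change was 0.31 ± 0.35 (SE; 95% interval -0.44 to 1.05; edgeR adjusted p = 0.736), so that a log2 difference of 1 lay within the interval. The log2 fold change was -0.03 without mouse 917, 0.15 without mouse 649, 0.19 without mouse 702 and 0.50 without mouse 1049. With the skeletal muscle level as a covariate it was 0.90 (edgeR adjusted p = 0.200). All 6 skeletal muscle markers had a fold change below 0, with a median log2 fold change of -2.18 and 0 past the threshold. Their sums ranged from 8.59 to 756 CPM in Nf2 and from 14.1 to 240 CPM in DKO DRG. The part of muscle in the Erbb4 values was not tested. Mouse 917, with the highest Erbb4 of all mice, also had the highest sum of markers of spinal cord oligodendrocytes and astrocytes, at 314 CPM. Mouse 1049, with the highest Erbb4 of the Nf2 mice, had the highest sum of that genotype, at 202 CPM. Over all mice these sums ranged from 62.2 to 202 CPM in Nf2 and from 61.9 to 314 CPM in DKO DRG, with 4 of 4 tested markers above 0 in fold change and 0 past the threshold, and their part in the Erbb4 values was not tested.

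Nrg1 (ENSMUSG00000062991, chr8:31814551-32884029, minus strand) varied least of the 10 genes, with a ratio of 1.20 between the highest and the lowest of the 12 mice. Its values ran from 84.8 through a median of 86.0 to 99.3 CPM in Nf2 and from 82.5 through 94.9 to 97.8 CPM in DKO DRG. The means were 89.6 ± 6.35 and 92.1 ± 6.18 CPM (SD, n = 6 each). With a log2 fold change of 0.02 ± 0.06 (SE) and a 95% interval of -0.11 to 0.15 (edgeR adjusted p = 0.907), it had the narrowest interval of the members. The counts are of the whole gene, so its axon-bound and secreted isoforms cannot be told apart, and a noncoding gene on the opposite strand, Gm26578, overlaps 4.66% of its exonic length.

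Nrg2 (ENSMUSG00000060275, chr18:36017652-36197380, minus strand), which also signals through ErbB3 and ErbB4, had equal means of 11.1 ± 2.11 CPM in Nf2 and 11.1 ± 1.89 CPM in DKO DRG (SD, n = 6 each). Its lowest, median and highest values were 9.00, 10.9 and 14.6 CPM and 9.42, 10.7 and 14.6 CPM. The highest mouse of each genotype was again mouse 649 and mouse 887, at 14.6 CPM each, opposite to their place in Egfr. The log2 fold change was -0.02 ± 0.14 (SE; 95% interval -0.33 to 0.28; edgeR adjusted p = 0.964).

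Nrg3 (ENSMUSG00000041014, chr14:38368952-39473088, minus strand), a neuronal ligand of ErbB4, ranged from 15.9 through a median of 20.8 to 25.7 CPM in Nf2 and from 18.6 through 23.1 to 28.5 CPM in DKO DRG. The same mice 649 and 887 were the lowest of their genotypes. Its means were 21.1 ± 3.36 and 23.6 ± 3.55 CPM (SD, n = 6 each), and the log2 fold change of 0.14 ± 0.12 (SE; 95% interval -0.11 to 0.39; edgeR adjusted p = 0.637) did not exceed the spread between mice. It was 0.07 without mouse 649 and 0.08 without mouse 917.

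**Figure D3:**
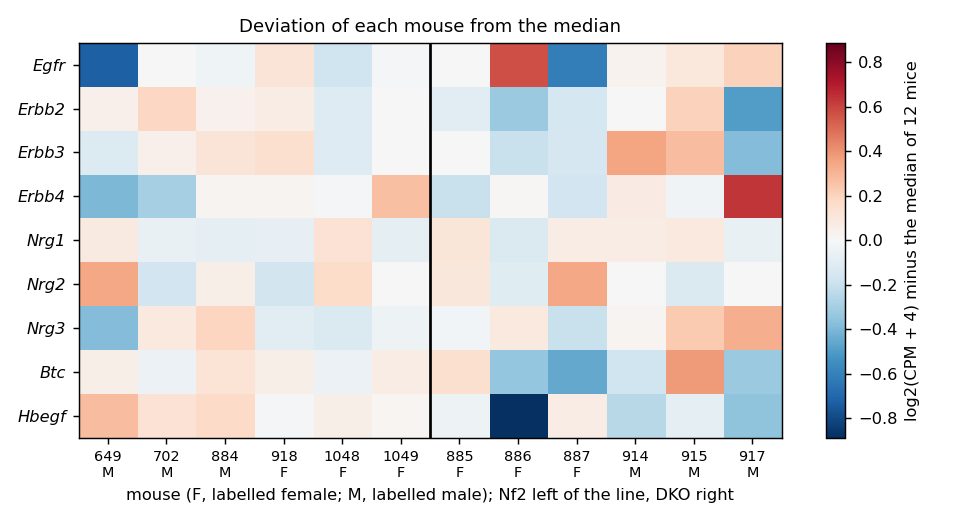
Difference of log2(CPM + 4) from the median of the 12 mice (colour, red above and blue below) for the 9 tested genes (rows) in each mouse (columns, Nf2 left of the line and DKO right). Mice 649 and 887 share low Egfr and Nrg3 and high Nrg2, and mouse 886 combines the highest Egfr with the lowest Hbegf.

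Hbegf (ENSMUSG00000024486, chr18:36504927-36515805, minus strand) encodes heparin-binding EGF-like growth factor, which is shed from the membrane to activate EGFR and ErbB4. In Nf2 DRG its lowest, median and highest values were 30.8, 33.5 and 38.4 CPM, and in DKO DRG 15.0, 27.5 and 32.8 CPM. All 6 DKO mice lay below the Nf2 mean and 5 of them below the lowest Nf2 mouse, with mouse 887 at 32.8 CPM overlapping. The means were 33.9 ± 2.86 and 26.0 ± 6.33 CPM (SD, n = 6 each). The log2 fold change was -0.40 ± 0.15 (SE) with a 95% interval of -0.72 to -0.08, and the edgeR p of 0.0189 became 0.220 after adjustment over all tested genes, so Hbegf did not pass the threshold. Without mouse 886, the lowest, the log2 fold change was -0.28. It was -0.51 among labelled males and -0.28 among labelled females.

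Marker levels of other cells of the ganglion are given beside Hbegf. The 8 macrophage markers all had a fold change below 0, 1 of them (C1qb) past the edgeR threshold, with a median log2 fold change of -0.39 and sums of 180 to 269 CPM in Nf2 and 154 to 200 CPM in DKO DRG. The 5 satellite glia markers had 3 below and 2 above 0 and none past the threshold, with sums of 4109 to 6032 and 3124 to 4549 CPM. Apoe, with a log2 fold change of -0.39 and an edgeR adjusted p of 0.206, made up most of these sums. Mice 886 and 917, with the lowest Hbegf at 15.0 and 23.4 CPM, had the lowest satellite glia sums. Mouse 886 had the highest meningeal, endothelial and perineurial sums. The macrophage sum was lowest of all mice in mouse 917, at 154 CPM. Mouse 887, with the highest Hbegf of the DKO mice, had a macrophage sum of 160 CPM, the lowest but 1. All 5 endothelial, 4 perineurial and 4 meningeal markers had a fold change above 0, with 0 past the threshold. The part of these cells in the Hbegf values was not tested.

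Btc (ENSMUSG00000082361, chr5:91357261-91402994, minus strand) was tightly grouped in Nf2 DRG, with a lowest, median and highest value of 3.30, 3.84 and 4.24 CPM, and dispersed in DKO DRG, at 1.51, 2.36 and 5.82 CPM. In DKO DRG 4 mice lay below and 2 above all Nf2 mice, and the coefficient of variation was 54.8% against 9.92%. The means were 3.74 ± 0.371 and 3.06 ± 1.68 CPM (SD, n = 6 each), with a log2 fold change of -0.31 ± 0.28 (SE; 95% interval -0.90 to 0.29; edgeR adjusted p = 0.660). Without mouse 915 the log2 fold change was -0.59, and without mouse 887 it was -0.18. The difference in spread itself was not tested, and Btc had only 32 to 150 counts per mouse.

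The entry with the Areg identifier (ENSMUSG00000029378, chr5:91139599-91148432, plus strand; amphiregulin is an EGFR ligand induced by injury and inflammation) fell under edgeR's count filter. It stood at 0.176 ± 0.103 CPM in Nf2 and 0.124 ± 0.0710 CPM in DKO DRG (SD, n = 6 each). The difference of mean log2(CPM + 4) was -0.02 (two-sided exact permutation test over 924 splits, p = 0.340), a size that the added 4 largely sets at these levels, since it was -0.06 with 1 added and -0.11 with 0.5 added. No difference was detected from 1 to 8 counts per mouse, and the size of difference that such counts could show was not tested.

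**Figure D4:**
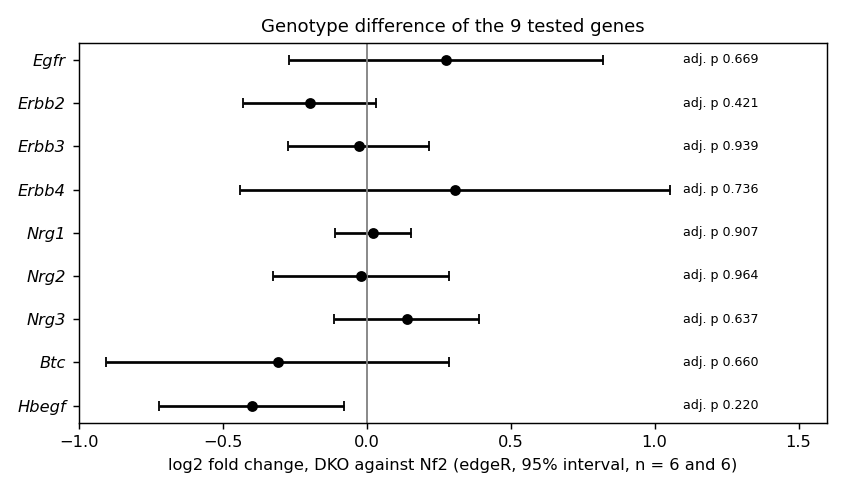
Log2 fold change of DKO against Nf2 DRG (x axis) for the 9 tested genes, with points for the edgeR estimate, bars for its 95% interval and the adjusted p at the right. Only the interval of Hbegf, -0.72 to -0.08, leaves out 0, and its adjusted p is 0.220.

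Sex was examined next, by the labels. Of all tested genes 3, or 0.0164%, differed between labelled males and females, and none of the 9 members did (edgeR adjusted p = 1.00 for each). This fit counts mouse 702 as male, against its Xist and Ddx3y levels, which limits it as a comparison of the sexes. Without mouse 702 the number of members past the threshold was also 0. Erbb4 had the largest dependence of the genotype difference on labelled sex. In labelled males its 3 Nf2 values were 1.02, 1.39 and 2.73 CPM and its 3 DKO values 2.48, 2.98 and 6.26 CPM. In labelled females they were 2.57, 2.74 and 3.96 CPM in Nf2 and 1.78, 1.89 and 2.68 CPM in DKO DRG. The DKO mice thus tended higher among males and lower among females, with overlap in both. By edgeR's quasi-likelihood test the interaction was 1.66 ± 0.58 on the log2 scale (SE), with an unadjusted p of 0.0147 and an adjusted p of 0.920. Without mouse 702 it was 1.54 ± 0.64 with an adjusted edgeR p of 0.776. No member passed the threshold for the interaction, which 2 genes or 0.0109% of those tested did.

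In the wider pathway few genes passed the test. Of 84 further genes listed for it, 83 were tested, of which 1 rose and 1 fell (2 of 83, against 0.940% of all tested genes), while 12 of 83 had an unadjusted edgeR p under 0.05, against 14.9% of all tested genes. Their median log2 fold change was -0.03, with 38 above and 45 below 0. That of all 18295 tested genes was 0.005, with 9338 above and 8957 below 0. DESeq2 called 5 of the 83, against 4.06% of all genes it tested. Dusp6, Pou3f1, Akt1, Adam12 and Nfatc4 separated the genotypes without overlap, which 1.95% of all tested genes did.

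The gene that fell was Dusp6, which encodes a phosphatase that removes the activating phosphates from ERK and is itself induced by ERK signalling. Its lowest, median and highest values were 57.9, 67.1 and 86.1 CPM in Nf2 and 39.6, 46.5 and 53.5 CPM in DKO DRG, so the genotypes did not overlap. The means were 69.4 ± 10.9 and 47.2 ± 5.45 CPM (SD, n = 6 each), with a log2 fold change of -0.58 ± 0.11 (SE; edgeR adjusted p = 0.0286). The call was lost in 6 of the 12 fits that each left out 1 mouse, those without Nf2 mouse 702 or 918 or DKO mouse 885, 886, 914 or 917 (adjusted p 0.0584 to 0.0750), with a log2 fold change of -0.63 to -0.50 over the 12 fits. Among the 16 ERK feedback and target genes, 12 had a fold change below 0 with a median of -0.09, against 8957 below 0 of all 18295 tested genes. None other than Dusp6 passed, and the count of directions was not tested. Spry2, an inhibitor of receptor tyrosine kinase signalling, stood at 28.0 ± 2.03 and 24.3 ± 3.78 CPM (SD, n = 6 each; edgeR adjusted p = 0.325), and Spred2, which restrains the Ras pathway, at 65.2 ± 3.65 and 59.4 ± 6.62 CPM (edgeR adjusted p = 0.371).

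The gene that rose was Pou3f1, the transcription factor Oct6 of promyelinating Schwann cells. Its lowest, median and highest values were 15.8, 19.7 and 25.0 CPM in Nf2 and 25.6, 30.2 and 34.9 CPM in DKO DRG, again without overlap. The means were 19.7 ± 3.63 and 30.1 ± 3.77 CPM (SD, n = 6 each), with a log2 fold change of 0.59 ± 0.13 (SE; edgeR adjusted p = 0.0419). The call was lost in 11 of the 12 fits that left out 1 mouse (adjusted p 0.0513 to 0.0993), the exception being the fit without mouse 649 (0.0175), with a log2 fold change of 0.53 to 0.68 over the 12 fits. With the skeletal muscle level as a covariate the log2 fold change was 0.58 and the adjusted edgeR p 0.139. Of the 11 Schwann cell genes downstream of neuregulin, 6 were above and 5 below 0 in fold change with a median of 0.02. DESeq2 also called Nab1, a co-repressor of the EGR factors (log2 fold change -0.27, DESeq2 adjusted p = 0.0344), and Nfatc4, a calcineurin-dependent factor (0.51, DESeq2 adjusted p = 0.0380), which the edgeR test did not (adjusted p = 0.107 and 0.126).

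In the remaining roles edgeR called no gene. The 4 other ligands tested had a median log2 fold change of -0.25, with Egf at 2.83 ± 0.387 CPM in Nf2 and 2.18 ± 0.668 CPM in DKO DRG (SD, n = 6 each; edgeR adjusted p = 0.375), and Epgn fell under the count filter. For Tgfa, a ligand of EGFR, the log2 fold change was -0.18 with an adjusted p of 0.504 by edgeR, and for Nrg4, a ligand of ErbB4, it was 0.15 (0.803). The 11 sheddases and processing genes had a median of -0.02, with Adam12, a metalloprotease that can release membrane-bound ligands, at 2.52 ± 0.748 and 3.57 ± 0.234 CPM (SD, n = 6 each; edgeR adjusted p = 0.253). For Rhbdf1, a regulator of the sheddase ADAM17, the log2 fold change was -0.16 (edgeR adjusted p = 0.355), and for Bace1, the protease that processes neuregulin 1, it was 0.11 (0.512).

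The 28 adaptors and kinases had a median log2 fold change of -0.03. Pik3r3, a regulatory subunit of phosphoinositide 3-kinase, stood at 41.5 ± 5.26 CPM in Nf2 and 52.1 ± 5.31 CPM in DKO DRG (SD, n = 6 each; edgeR adjusted p = 0.127). The kinase Akt1, downstream of it, was at 194 to 208 CPM in Nf2 and 169 to 193 CPM in DKO DRG without overlap, with a log2 fold change of -0.14 that passed by DESeq2 (adjusted p = 0.0166) and not by edgeR (0.159). For Src, a kinase that acts together with Fak, the log2 fold change was -0.24 with an adjusted p of 0.161 by edgeR. Of the 13 receptor inhibitors and turnover genes, 11 had a fold change above 0, against 9338 of all 18295 tested genes, and 0 passed. The median was 0.06, some lay near 0, such as Usp8 at 0.005 and Lrig2 at 0.006, and the count of directions was not tested. Cbl, a ubiquitin ligase that directs EGFR to degradation, stood at 96.4 ± 16.7 and 118 ± 9.44 CPM (SD, n = 6 each; edgeR adjusted p = 0.220), Lrig1, which lowers ErbB receptor levels, had a log2 fold change of 0.14 (0.491), and Socs5 one of 0.09 (0.461).

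**Figure D5:**
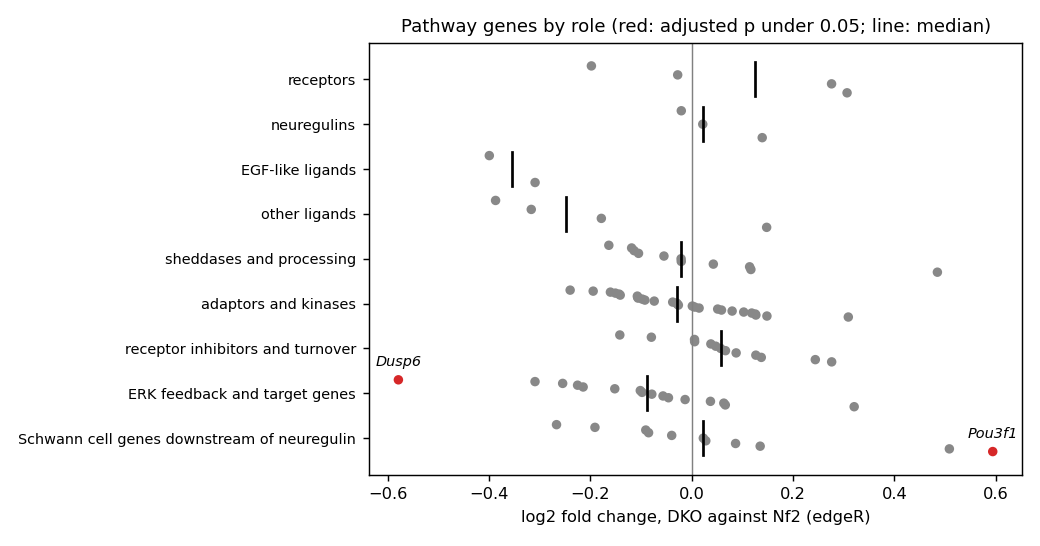
Log2 fold change of DKO against Nf2 DRG (x axis, edgeR) for each tested gene, grouped by role (y axis), with a line at the median of each role and red for an adjusted p under 0.05. Dusp6 at -0.58 and Pou3f1 at 0.59 are the only red points.

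The genes most like Egfr, Erbb3 and Nrg1 across the mice were sought among 11967 genes with a mean of at least 5 CPM, by Pearson's r of log2(CPM + 4) over the 12 mice and as a description without a test, since all genes of a mouse share its library. For Egfr these were Lrrc47 (r = 0.978, rho = 0.818), Ahcyl1 (r = 0.976, rho = 0.783) and Ezh1 (r = 0.967, rho = 0.930). Without mice 649 and 887, r was 0.919, 0.933 and 0.948. For Erbb3 they were Tgfbr3 (r = 0.923, rho = 0.937), Zfp36l1 (r = 0.906, rho = 0.937) and Shpk (r = 0.904, rho = 0.944), with r of 0.921, 0.857 and 0.839 without mice 917 and 914. Nrg1, whose level hardly varied, was most like Brat1 (r = 0.881, rho = 0.811), Cyp4f13 (r = 0.880, rho = 0.769) and Trim11 (r = 0.879, rho = 0.839), with r of 0.817, 0.828 and 0.817 without mice 1048 and 886.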

How the data were processed

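The file deposited by the authors holds raw, unnormalized counts of reads for each Ensembl gene in each mouse. The submitters' processing notes name Trimmomatic 0.36, STAR 2.5.2b, featureCounts from Subread 1.5.2 and GRCm38, while settings for strand and multiply mapped reads were not given in the sources used here. Lengths and coordinates came from GENCODE M21 (99.3% of identifiers matched). Statistics were run with edgeR 4.0.16 in R 4.3.3 (filterByExpr by genotype, TMM factors, quasi-likelihood F test of genotype alone over the 12 mice, Benjamini-Hochberg adjustment, threshold 0.05), and labelled sex and its interaction with genotype were tested likewise. CPM was scaled to the library total. Alternatives used DESeq2 1.42.0, limma 3.58.1 voom, other factors, filters, covariates, subsets of mice and each mouse left out. Receptor pairs were permuted 100000 times. Code was tested on simulated data. Figures used matplotlib 3.10.9. The genes, lists and tests were chosen with earlier results of these data known. Named were the listed genes, the targeted and sex-linked genes, pathway genes past the threshold or the 3 smallest p per role, and the 3 genes most like Egfr, Erbb3 and Nrg1. Mice were separate animals, and the depth of 21129191 to 41250329 counts limits precision for Erbb4, Btc and Areg.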

Additional observations from a re-analysis of the deposited data

Results flagged for a closer look

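In 20 groups of 6 mice (10 genes in each genotype), the gap of the highest or lowest mouse was compared with the range of the group on the log2(CPM + 4) scale, and 2 mice stood apart where chance gives about 1. Egfr in Nf2 mouse 649 was 2.97, or 3.83 CPM, with the next mouse at 3.52. That library had a mitochondrial share of 4.45%. Erbb4 in DKO mouse 917 was 3.36, or 6.26 CPM, with the next mouse at 2.80. That mouse had the highest sum of markers of spinal cord oligodendrocytes and astrocytes, at 314 CPM.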

How the results depend on the processing

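Of the 9 tested genes, 0 passed the threshold under any of 25 alternatives, and Egfr, Erbb2, Nrg3, Btc and Hbegf kept their direction in all of them (Hbegf -0.55 to -0.28, adjusted p 0.112 to 0.868). The direction of the other 4 changed under some alternatives. Leaving out 1 mouse gave log2 fold changes of -0.108 to 0.0419 for Erbb3, -0.0332 to 0.497 for Erbb4, -0.00178 to 0.0524 for Nrg1 and -0.130 to 0.0762 for Nrg2. Labelled males alone gave 1.13 for Erbb4 and 0.0579 for Erbb3, or 0.0710 without mouse 702 (added after the data were seen), where Nrg1 was -0.0157. Labelled females alone gave -0.542 for Erbb4 and 0.167 for Nrg2, and limma voom gave 0.0137 for Nrg2, 0.0844 for Erbb4 and 0.145 for Egfr. Without mouse 702 the sex difference of Nrg1 was 0.00305 and the interaction of Erbb2 was 0.0252. The number of other pathway genes called, 2, was 5 by DESeq2 and 0 to 2 with 1 mouse left out. The calls of Dusp6 and Pou3f1 were lost in labelled males alone (log2 fold changes -0.70 and 0.55, adjusted p 0.333 and 0.468), in labelled females alone (-0.47 and 0.63, adjusted p 0.347 and 0.196), and in males without mouse 702 (-0.71 and 0.44, adjusted p 0.553 for both). With mice 649 and 887 both left out (added after the data were seen), 0 members and 2 pathway genes were called. Over all tested genes the calls ranged from 2 in labelled males alone to 829 by DESeq2, 521 by limma voom, 79 with the muscle covariate, 57 in labelled females, 314 without mice 649 and 887, 9 in males without mouse 702, and 81 to 217 with 1 mouse left out. With the longest transcript Nrg1 was 16.8, Hbegf 10.4 and Nrg3 5.57 per kb. No mouse number occurs in both genotypes, and litters or other pairings of the mice were not given in the sources used here, so no paired analysis was made. The cause of these changes was not tested. Low counts limit Areg, Erbb4 and Btc.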
